A study of Mus musculus with 10 samples.

Results

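Transcripts of parotid-type secretory products, Bpifa2, Amy1, Prb1, Dnase1 and Smr3a, were followed through ligated and sham-operated submandibular glands. These 5 genes were taken by symbol from a table of 55291 genes, and all 5 were found. The tissue was the submandibular gland of C57BL/6J mice aged 8 weeks and labelled female. Ligated animals had sutures placed around the right submandibular duct, proximally and distally, and in the sham group the skin was cut and the gland dissected without a ligature. Glands were taken on day 7, with 5 RNA-seq libraries in the ligated group and 5 in the sham group, 10 in all, and 5 mice per group are stated. No transgene or mutant allele is given, and both groups were operated on. Values are FPKM, fragments per kilobase of gene model scaled to the size of the library, so that levels can be compared between genes.

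The major salivary glands of the mouse come in pairs. The parotid gland is serous and secretes enzymes, the sublingual gland is mainly mucous with serous demilunes, and the submandibular gland lies beside both and combines seromucous acini with granular convoluted tubules. Bpifa2 encodes parotid secretory protein, a member of the family of bactericidal/permeability-increasing (BPI) fold proteins, which in mice is also known from the sublingual gland and from the submandibular gland of newborns. Amy1 encodes salivary amylase, which digests starch. Dnase1 encodes a secreted endonuclease for which the mouse parotid is a rich source. Prb1 encodes a proline-rich salivary protein of a class whose rodent genes are known to respond to beta-adrenergic stimulation. Smr3a is named as an androgen-regulated gene of the submaxillary gland and lies in a cluster of genes for small proline-rich salivary proteins.

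The libraries held 12105739 to 17305599 reads assigned to genes, as worked out from the FPKM, and 12307 to 13162 genes reached 1 FPKM in ligated glands against 9860 to 12060 in sham glands. Markers of the labelled gland were present in every library. Summed over 8 products of the granular convoluted tubule, the level was 6574 to 55855 FPKM in ligated and 41026 to 84745 FPKM in sham glands. The labels give female mice, yet 4 Y-linked genes summed to 22.1 to 29.98 FPKM in ligated and 8.91 to 25.5 FPKM in sham libraries, while Xist reached at most 0.0259 FPKM in ligated and 0.0267 FPKM in sham libraries. The sex of the label therefore goes against the transcripts in all 10 libraries. Ligated 2, 3 and 5 and sham 1 stood apart from the other 6 libraries in all 5 parotid-type genes. Of these, ligated 2, ligated 3 and sham 1 also had high levels of lymph node genes, as described further on.

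The parotid-type transcripts differed widely between libraries, with high and low libraries in both groups. Together the 5 genes took 6.94%, 12.9% and 6.56% of the summed FPKM in ligated 2, 3 and 5, and 0.0132% and 0.00358% in ligated 1 and 4. In sham glands they took 3.99% in sham 1 and 0.0391% to 0.190% in sham 2 to 5. Levels were thus high in 3 of 5 ligated and 1 of 5 sham libraries. None of the 4 members that could be tested was called changed with limma, 0 had an unadjusted p under 0.05, and the groups overlapped in 5 of 5 members. Of the 11856 genes tested, 17.1% were called higher and 1.16% lower in ligated glands, and 30.2% lay above and 1.12% below all sham libraries without overlap. Higher calls made up 93.6% of all calls, 64.1% after median-ratio scaling and 57.5% after quantile normalization, and in none of these fits was a member called. Because RNA was taken from whole glands, fewer cells of a type and less RNA per cell cannot be told apart, and whether these transcripts came from submandibular cells or from other salivary tissue in the sample was not tested.

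**Figure D1:**
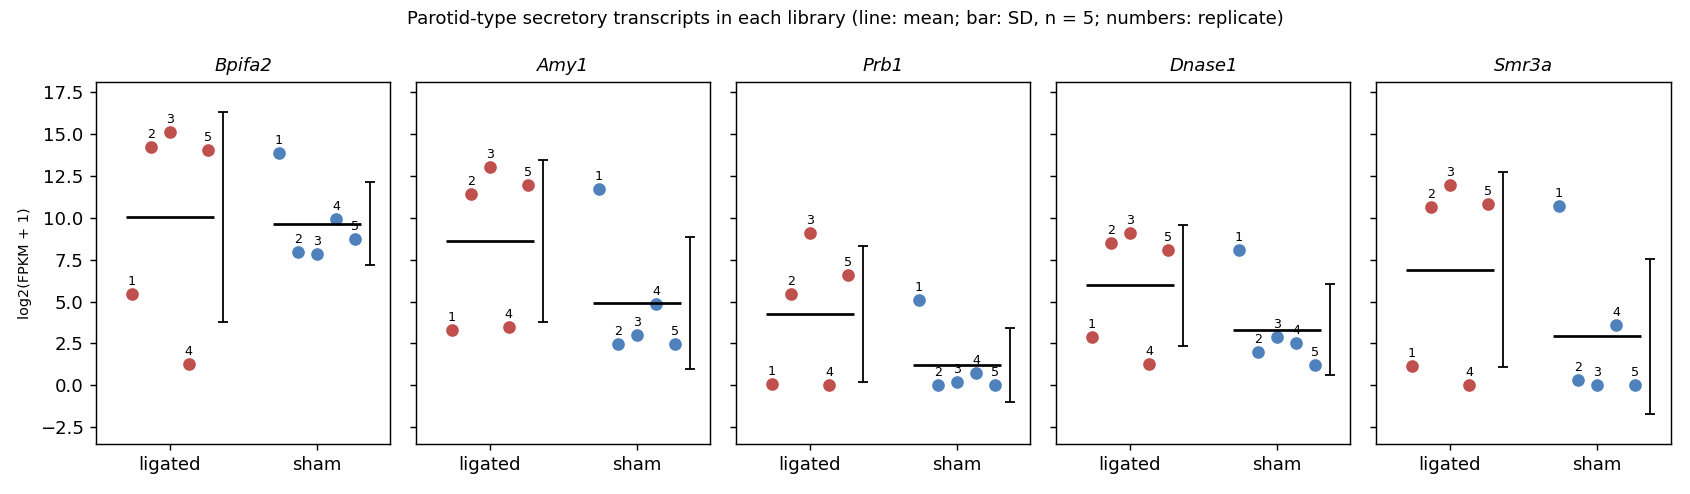
Level of each of the 5 genes, as log2(FPKM + 1) on the vertical axis, in the 5 ligated (red) and 5 sham (blue) libraries. Points are libraries with their replicate number, lines are group means and bars are SDs. In every panel ligated 2, 3 and 5 and sham 1 sit high and the other 6 libraries sit lower, so the groups overlap.

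Bpifa2 was the most abundant member in 9 of 10 libraries. It stood at 43.5, 18720, 34754, 1.46 and 16877 FPKM in ligated 1 to 5, and at 14814, 244, 223, 949 and 426 FPKM in sham 1 to 5. It was the highest gene of the whole library in ligated 2, 3 and 5 and the fourth highest (rank 4) in sham 1, but ranked 844 in ligated 1 and 11490 in ligated 4. In sham 2 to 5, with far lower FPKM than in sham 1, it still ranked 75, 77, 37 and 51. Ligated glands thus held both the highest and the lowest values, with the sham glands between them. The mean was 14079 ± 14594 FPKM in ligated and 3331 ± 6426 FPKM in sham glands (SD, n = 5 each). On the log2(FPKM + 1) scale the difference was 0.37 ± 2.56 (SE; limma, Benjamini-Hochberg adjusted p = 0.904), which is far smaller than its error.

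Amy1 was at 8.81, 2682, 8365, 10.1 and 3855 FPKM in ligated 1 to 5, and at 3358, 4.45, 6.96, 28.3 and 4.62 FPKM in sham 1 to 5. Ligated 1 and 4 lay within the range of sham 2 to 5, and sham 1 lay within the range of ligated 2, 3 and 5. The log2 difference was 3.72 ± 2.36 (SE; limma, Benjamini-Hochberg adjusted p = 0.186). Without sham 1 it was 5.42 and passed the threshold (adjusted p = 0.0376). The 6 pancreatic amylase genes listed, near-identical copies on the same chromosome as Amy1, were listed at 0 in all 10 libraries. Reads that match several copies may have been set aside or assigned elsewhere, so this does not separate the amylase genes. Of 12 pancreas markers, 5 were at 0 in every library and the sum was at most 1.89 FPKM in ligated and 1.01 FPKM in sham libraries.

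Outside the 4 high libraries Smr3a was low or at 0, with at most 87 reads, in sham 4. It was at 1.22, 1599, 3868, 0 and 1802 FPKM in ligated 1 to 5, and at 1657, 0.258, 0, 11.2 and 0 FPKM in sham 1 to 5. The values of 0 allow up to 0.271 to 0.375 FPKM at 3 reads in these libraries, and the value in sham 2 rested on 2 reads. The log2 difference was 3.98 ± 2.82 (SE; limma, Benjamini-Hochberg adjusted p = 0.231), and the groups overlapped. Smr3a was thus among the 32 highest genes of the 4 high libraries and not detectable in ligated 4, sham 3 and sham 5 at this depth.

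Dnase1 was at 6.34, 362, 545, 1.40 and 273 FPKM in ligated 1 to 5, and at 263, 2.91, 6.34, 4.80 and 1.30 FPKM in sham 1 to 5. Unlike Smr3a it was detected in every library, with at least 50 reads. The log2 difference was 2.64 ± 1.72 (SE; limma, Benjamini-Hochberg adjusted p = 0.195). Without sham 1 it was 3.82 and passed the threshold (adjusted p = 0.0471), which made Dnase1 and Amy1 the 2 members called higher in that fit. No member was called higher or lower when any of the other 9 libraries was left out.

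Prb1 was the scarcest member, at 0.0439, 42.7, 532, 0 and 96.0 FPKM in ligated 1 to 5, and at 33.2, 0, 0.143, 0.662 and 0 FPKM in sham 1 to 5. It reached 1 FPKM in 4 libraries only and so missed the filter of 1 FPKM in at least 5 libraries. An exact permutation test of its log2 difference of 3.03, made after the values were seen, gave a two-sided p of 0.183 (n = 5 each). The same exact test gave p = 0.929 for Bpifa2, 0.206 for Amy1, 0.214 for Dnase1 and 0.278 for Smr3a, where the smallest p it allows is 0.00794. The values of 0 for Prb1 allow up to 0.129 to 0.152 FPKM at 3 reads. Ligated 3 held 11558 of its reads, sham 1 held 697, and ligated 1 held 1.

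Amy1, Smr3a and Dnase1 stood in similar proportion to Bpifa2 in the libraries where they were high. For every 100 FPKM of Bpifa2, Amy1 gave 14.3, 24.1 and 22.8 FPKM in ligated 2, 3 and 5, against 22.7 FPKM in sham 1. For Smr3a the corresponding values were 8.54, 11.1 and 10.7 FPKM in those ligated libraries and 11.2 FPKM in sham 1, and for Dnase1 they were 1.93, 1.57 and 1.62 FPKM and 1.77 FPKM. The highest of these 4 values was thus 1.68 times the lowest for Amy1, 1.31 times for Smr3a and 1.23 times for Dnase1. Prb1 was the exception, with 0.228, 1.53 and 0.569 FPKM per 100 FPKM of Bpifa2 in ligated 2, 3 and 5 and 0.224 FPKM in sham 1, a spread of 6.82 times. These proportions are a description of 4 libraries picked out by their levels and carry no test.

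In the remaining libraries the proportion of Amy1 was lower in sham 2 to 5, much higher in ligated 4 and alike in ligated 1. Per 100 FPKM of Bpifa2, ligated 1 and 4 had 20.3 and 689.9 FPKM of Amy1, and sham 2 to 5 had 1.82, 3.12, 2.98 and 1.08 FPKM. Over all libraries, the mean log2 ratio of Amy1 to Bpifa2 was -1.40 ± 2.02 in ligated and -4.74 ± 1.56 in sham glands (SD, n = 5 each). The difference of 3.34 had an exact two-sided permutation p of 0.0238 and an adjusted p of 0.0529 over the 4 ratios to Bpifa2 that were tested. For Smr3a the difference was 3.61 (exact permutation p = 0.0397, adjusted p = 0.0529), for Prb1 2.66 (exact permutation p = 0.0397, adjusted p = 0.0529) and for Dnase1 2.27 (exact permutation p = 0.119, adjusted p = 0.119). None of the 4 passed at 0.05 after adjustment. The call turned without sham 1, where Amy1 and Smr3a differed by 3.996 and 4.496 (exact permutation, adjusted p = 0.0159 for each), and without ligated 2, where Amy1 and Prb1 differed by 3.70 and 3.40 (adjusted p = 0.0476 and 0.0317). In ligated 4 Smr3a and Prb1 were at 0 and Bpifa2 at 42 reads, so the ratios of that library rest on the pseudocount of 1 FPKM. The same limit holds for Prb1 in ligated 1 and sham 2 to 5, with 0 to 13 reads. It also holds for Smr3a in sham 2, 3 and 5, with 0 to 2 reads. Where a member was at 0, its ratio was set by Bpifa2 and the pseudocount alone.

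**Figure D2:**
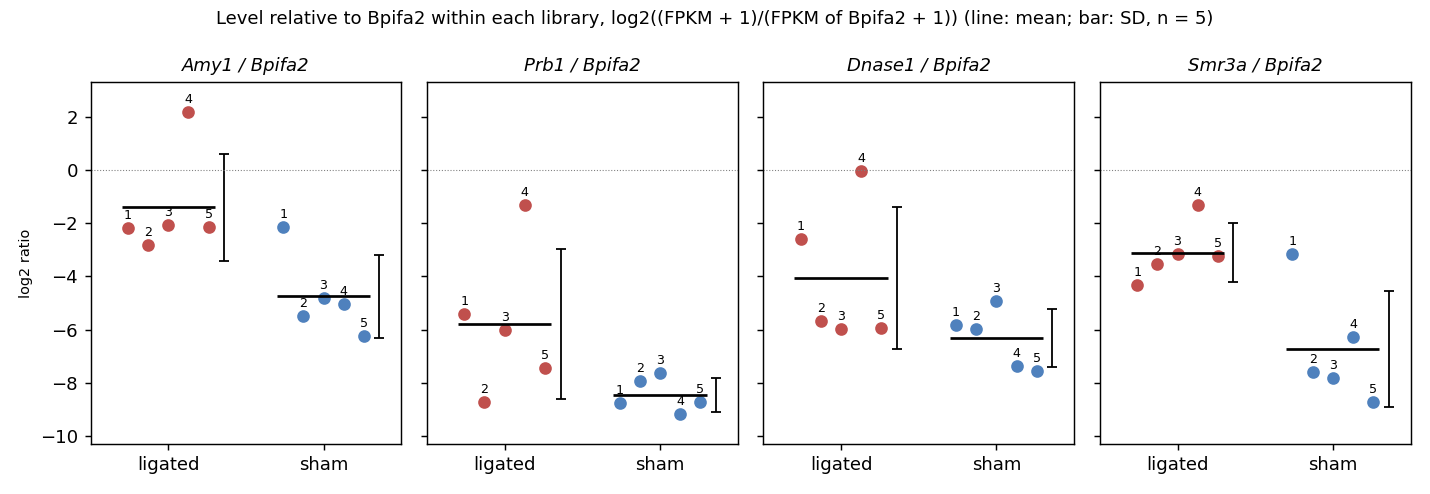
Level of Amy1, Prb1, Dnase1 and Smr3a relative to Bpifa2 within each library, as a log2 ratio of FPKM + 1 on the vertical axis, for 5 ligated (red) and 5 sham (blue) libraries; lines are means, bars SDs and numbers replicates. For Amy1, ligated 1, 2, 3 and 5 and sham 1 sit close together between -2.80 and -2.05, with ligated 4 above them at 2.17 and sham 2 to 5 below them.

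In sham 2 to 5, low in the other members, Bpifa2 remained well above the depth limit, whereas in ligated 4 it held 42 reads, fewer than the 497 of Amy1. In sham 2 to 5 Bpifa2 held 5961 to 23080 reads, against 0 to 87 reads of Smr3a and 0 to 13 of Prb1. Amy1 with 186 to 1179 reads and Dnase1 with 50 to 338 reads were above the limit at 3 reads there too. From low to high, Bpifa2 ordered these libraries as sham 3, 2, 5 and 4. Dcpp2 and Dcpp3, which encode demilune cell and parotid proteins, and Smgc, a gene of mucous and demilune cells, gave the same order. Muc19, a gel-forming mucin of the sublingual gland, ordered them as sham 3, 2, 4 and 5, and Amy1 as sham 2, 5, 3 and 4. In the ligated libraries low in Amy1, Dcpp2 had 395 FPKM in ligated 1 and 0 in ligated 4, where Bpifa2 had 43.5 and 1.46 FPKM. In sham 2 to 5 Dcpp2 had 3760, 1779, 12552 and 5813 FPKM. These 6 libraries were compared after their values were seen, and no test was made of Bpifa2 among them. Dcpp2 and Dcpp3 are near-identical copies whose reads can be shared.

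**Figure D3:**
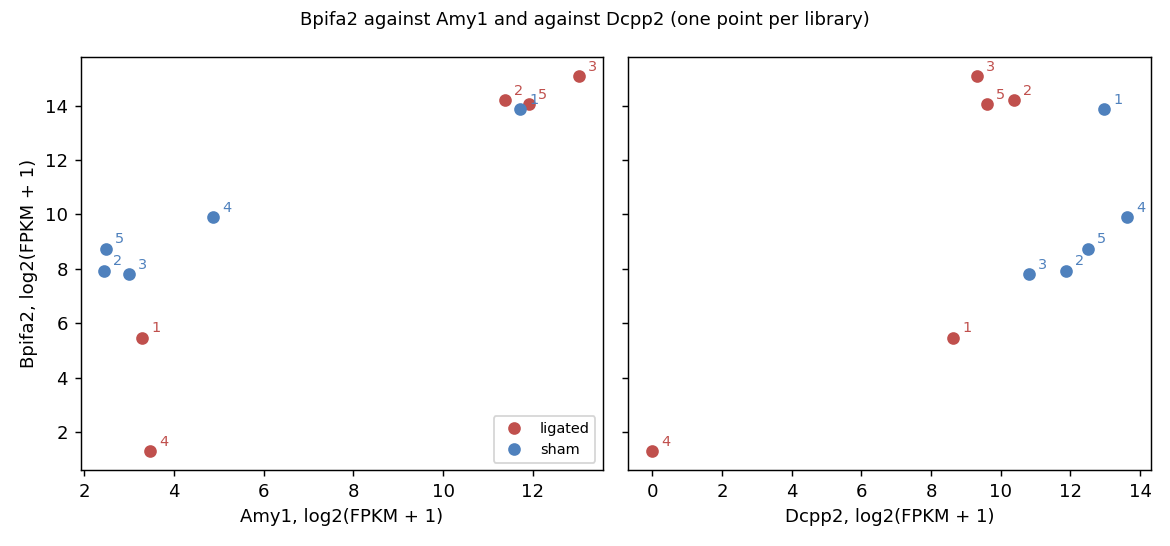
Bpifa2 on the vertical axis against Amy1 (left) and Dcpp2 (right), each as log2(FPKM + 1), with one point per library (ligated red, sham blue, replicate numbers beside the points). On the left, ligated 2, 3 and 5 and sham 1 form a group at the upper right; on the right, the other 6 libraries lie along a rising line from ligated 4 through ligated 1 to sham 4.

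Some other genes had the same pattern over the libraries. By Pearson's r of log2(FPKM + 1) over the 10 libraries, a ranking was made of 3743 genes that had passed the filter for testing, averaged 10 FPKM or more and were no predicted gene models. Within it the genes most like Amy1 were Cst10 (r = 0.997), a cystatin, Chia1 (0.994), the acidic mammalian chitinase, and Ggh (0.967), a lysosomal hydrolase of folate derivatives. Within the ranking the same 3 genes led for Prb1, with Ggh first (0.992), and for Dnase1 and Smr3a. Those most like Bpifa2 in it were Cst10 (0.885), Chia1 (0.885), Dcpp1 (0.851) and Ggh (0.838), followed by Shmt2 (0.736), Kdelr2 (0.714), Atp13a2 (0.692), Mospd3 (0.680), Stag2 (0.678) and Crisp1 (0.657), none of which was called changed. The proline-rich protein gene Prpmp5 averaged 35.2 FPKM but missed the filter, as Prb1 did, and so was not ranked. Its r was 0.985 with Amy1, 0.988 with Prb1, 0.978 with Dnase1, 0.977 with Smr3a and 0.860 with Bpifa2, which is above Ggh for Amy1, Dnase1, Smr3a and Bpifa2 and above Cst10 for Prb1. Among the members themselves, r was 0.960 to 0.995 for the 6 pairs without Bpifa2 and 0.851 to 0.886 for the 4 pairs with it. These values describe likeness and rest on the gap between 4 high and 6 low libraries.

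Chia1 exceeded Amy1 in ligated 2 and stood below it in the other libraries. It was at 1.12, 3455, 5286, 0.0733 and 2229 FPKM in ligated 1 to 5, and at 2085, 0.0433, 0.304, 12.5 and 0 FPKM in sham 1 to 5. Cst10 was at 0.170, 475, 1416, 0 and 650 FPKM in ligated 1 to 5, and at 397, 0, 0.277, 2.97 and 0.0957 FPKM in sham 1 to 5. Sham 4 was the next library after the 4 high ones in both genes, as it was in Bpifa2, Amy1, Prb1 and Smr3a but not in Dnase1. For every 100 FPKM of Amy1 it held 39.8 FPKM of Smr3a, 44.1 FPKM of Chia1 and 10.5 FPKM of Cst10, where sham 1 held 49.4, 62.1 and 11.8 FPKM. Ggh differed less, with 29.8, 177, 589.8, 32.6 and 290 FPKM in ligated 1 to 5 and 172, 36.3, 21.7, 39.4 and 31.5 FPKM in sham 1 to 5. None of the 3 was called changed between the groups (limma, adjusted p = 0.222, 0.213 and 0.145 for Chia1, Cst10 and Ggh).

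Dcpp1 exceeded its copy Dcpp2 in ligated 2, 3 and 5 but not in sham 1. It stood at 95.6, 2306, 3427, 0 and 4748 FPKM in ligated 1 to 5, and at 2783, 1365, 539, 4716 and 2084 FPKM in sham 1 to 5. Dcpp2 stood at 395, 1327, 633, 0 and 781 FPKM in ligated 1 to 5, and at 8030, 3760, 1779, 12552 and 5813 FPKM in sham 1 to 5. Dcpp1 was above Dcpp2 in ligated 2, 3 and 5 and below it in every sham library, sham 1 included. Reads of these genes can be shared, and the division between them is uncertain.

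The genomic neighbours of the members did not share one pattern. On GRCm38, with GENCODE M21 positions, Smr3a (ENSMUSG00000029280.13) lies on chromosome 5 at 88002549 to 88008534. On the same chromosome and strand, 309 kb away, lies Prol1, a proline-rich mucin gene, which was at 2672 to 16199 FPKM in ligated and 21866 to 45105 FPKM in sham glands, with no overlap. Smr2, 78.0 kb from Smr3a and named for androgen regulation as well, was below 2 FPKM in every library, at 0.497 to 1.70 FPKM in ligated and 0 to 0.686 FPKM in sham glands. Bpifa2 (ENSMUSG00000042459.8) lies on chromosome 2 at 154008265 to 154016079 within a cluster of BPI-fold genes. Its nearest listed neighbour, Bpifa6, 7.77 kb away, reached 0.665 FPKM at most. Bpifb5, 208 kb away, was at 0.348, 1.75, 6.25, 0 and 2.40 FPKM in ligated 1 to 5, and at 0.0945 FPKM in sham 1 and 0 in sham 2 to 5.

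Prb1 (ENSMUSG00000067543.8) lies on chromosome 6 at 132206795 to 132210521, on the minus strand, with other proline-rich protein genes near it. Prpmp5, 101 kb away, followed it, at 0.0548, 66.0, 168, 0 and 89.9 FPKM in ligated 1 to 5 and 28.4, 0, 0, 0.318 and 0 FPKM in sham 1 to 5. Prh1, 359 kb away, was listed above 0 in 2 libraries only, ligated 3 with 33.7 FPKM and ligated 5 with 4.94 FPKM. Prp2 was at 8.41 FPKM in ligated 3 and at most 0.422 FPKM elsewhere. Ligated 3, the library highest in Prb1, was thus also the highest in these 3 genes. Genes for proline-rich proteins are repetitive and alike, so reads may be shared among them. Amy1 (ENSMUSG00000074264.12) lies on chromosome 3 at 113555710 to 113606699 on the minus strand, and Dnase1 (ENSMUSG00000005980.15) on chromosome 16 at 4036942 to 4040024.

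Since the members varied together, the sequence before their starts is shown for those where it helps to compare them, from RefSeq on GRCm38.p6, 100 bases before to 50 bases after the annotated start, 5′ to 3′ on the gene's strand. Capitals mark TATAA, the core of a TATA box, searched on the gene's strand from 100 to 5 bases before the start; in all, 7.48% of 32841 promoters of the table hold it there. It lies in the window of Bpifa2 (chr2:154008176-154008325, plus strand, 40 bases before the start), of Smr3a (chr5:88002425-88002574, plus strand, 12 bases before) and of Prb1 (chr6:132210472-132210621, minus strand, 50 bases before). Amy1 has a pair of annotated starts, known as alternative promoters. The upstream one (chr3:113577701-113577850, minus strand) holds no TATAA and the downstream one (chr3:113574713-113574862, minus strand) holds it 63 bases before the start. Prpmp5 (chr6:132314694-132314843, minus strand) is set beside Prb1, because 96.6% of 291 bases compared without gaps between their promoters were the same, at a shift of 9 bases.
Bpifa2: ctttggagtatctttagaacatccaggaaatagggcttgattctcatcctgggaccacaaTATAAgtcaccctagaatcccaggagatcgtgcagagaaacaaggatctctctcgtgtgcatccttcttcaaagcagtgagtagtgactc
Smr3a: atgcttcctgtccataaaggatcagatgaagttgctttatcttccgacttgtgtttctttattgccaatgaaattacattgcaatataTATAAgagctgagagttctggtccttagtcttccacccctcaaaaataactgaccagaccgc
Amy1 upstream start: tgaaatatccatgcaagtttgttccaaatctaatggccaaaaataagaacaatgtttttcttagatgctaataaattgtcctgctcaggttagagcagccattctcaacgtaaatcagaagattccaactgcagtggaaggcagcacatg
Amy1 downstream start: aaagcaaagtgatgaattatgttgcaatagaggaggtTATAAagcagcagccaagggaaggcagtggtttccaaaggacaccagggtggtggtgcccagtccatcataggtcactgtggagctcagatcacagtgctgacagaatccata
Prb1: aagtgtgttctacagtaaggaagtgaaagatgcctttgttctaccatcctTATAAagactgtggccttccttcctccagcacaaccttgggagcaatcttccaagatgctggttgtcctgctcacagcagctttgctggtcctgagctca
Prpmp5: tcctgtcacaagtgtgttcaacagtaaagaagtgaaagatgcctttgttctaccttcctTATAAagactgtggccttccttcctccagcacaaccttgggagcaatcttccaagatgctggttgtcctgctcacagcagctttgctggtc

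The windows of the 2 annotated Dnase1 starts hold no TATAA on the gene's strand. Nor does the window of Cst10, the gene most like Amy1 in the ranking. A match is a description of letters and not a binding site, and the FPKM are sums over the whole gene, so they do not show which Amy1 start was used.

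Several genes for salivary secretory products fell in ligated glands. Of 13 proline-rich and other salivary products listed beside the members, 6 were tested, 0 were called higher and 4 lower, with a median log2 fold change of -1.99 where that of all tested genes was 0.53. Mucl2, a mucin-like gene, was lower by -3.86 ± 0.77 (limma, adjusted p = 0.00259), Prol1 by -2.26 ± 0.57 (adjusted p = 0.00749), the carbonic anhydrase Car6 by -2.005 ± 0.48 (adjusted p = 0.0062) and Pip, a prolactin-induced secretory protein, by -1.98 ± 0.36 (adjusted p = 0.00159). The calls of Mucl2, Prol1 and Car6 were lost with quantile normalization (adjusted p = 0.147, 0.108 and 0.0691) and without a filter (0.36, 0.271 and 0.127), and that of Prol1 with the replicate block (0.0555). Of the same list Cst10 and Prpmp5 followed the members as described, and Prpmp5 missed the filter. Smr2 missed it too, at 0.497 to 1.70 FPKM in ligated and 0 to 0.686 FPKM in sham glands. Mucl2 was at 44263, 3940, 4238, 16547 and 6853 FPKM in ligated 1 to 5, against 103157, 169208, 221891, 109325 and 125951 FPKM in sham 1 to 5. Within each group, the libraries high in the members thus had the lowest Mucl2, and the same held for Prol1 and Car6. It did not hold for Pip, where ligated 4 with 622 FPKM lay below ligated 3 and 5 with 1368 and 916 FPKM and sham 4 with 2709 FPKM lay below sham 1 with 3163 FPKM, nor for Lpo, a salivary peroxidase, which was lowest in ligated 4 among the ligated libraries.

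Relatives of the members were mostly near 0. Of 16 other BPI-fold genes, 5 were at 0 in every library and 2 were tested, both called higher: Pltp, a phospholipid transfer protein, by 1.92 ± 0.19 (limma, adjusted p = 0.000102) and Lbp, the lipopolysaccharide-binding protein, by 1.85 ± 0.30 (adjusted p = 0.000876; 0.63 and not called with a pseudocount of 10). Pltp was at 25.95, 37.8, 27.9, 32.4 and 29.5 FPKM in ligated 1 to 5 and 9.38, 4.24, 7.51, 7.93 and 8.49 FPKM in sham 1 to 5, without overlap and without the split seen in Bpifa2. Of 5 other DNase genes 3 were tested and 1 was called, Dnase1l1 (1.10 ± 0.20, limma, adjusted p = 0.0016), whose call was lost after median-ratio scaling (0.56), quantile normalization (0.48), a pseudocount of 10 (0.44) or leaving out ligated 5 (0.99). Dnase1l3, known from macrophages and dendritic cells, was at 4.61, 5.81, 7.26, 0.190 and 0.865 FPKM in ligated 1 to 5 and 5.84, 0.0640, 0.269, 0.0641 and 0.0310 FPKM in sham 1 to 5. It was high in ligated 1 and low in ligated 5, the reverse of Dnase1.

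Of 15 genes shared by serous and seromucous acini, 14 were tested, 0 were called higher and 3 lower: Spdef (-2.54 ± 0.33, limma, adjusted p = 0.000314), Bhlha15 (-1.76 ± 0.32, adjusted p = 0.00148) and Aqp5 (-1.24 ± 0.30, adjusted p = 0.00588). After median-ratio scaling 8 were lower, and with the same summed FPKM Aqp5 was not called (-0.69). Bhlha15, a transcription factor of secretory acinar cells, was at 95.9, 30.5, 28.7, 27.6 and 32.1 FPKM in ligated 1 to 5 and 100.4, 132, 119, 152 and 155 FPKM in sham 1 to 5. Ligated 2, 3 and 5, with high Amy1, and ligated 4, with low Amy1, thus had about the same Bhlha15 level. Xbp1, a transcription factor of secretory cells, was at 151, 184, 195, 140 and 135 FPKM in ligated 1 to 5 and 191, 135, 131, 172 and 146 FPKM in sham 1 to 5. Ligated 2 and 3 and sham 1, high in the members, were the highest of their groups in Xbp1, whereas ligated 5, also high in the members, was the lowest of its group.

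Of 6 sublingual genes, 5 were tested and 3 were lower, with a median log2 fold change of -4.31: the gel-forming mucin Muc19 (-4.70 ± 0.73, limma, adjusted p = 0.000681), Smgc (-2.33 ± 0.52, adjusted p = 0.00433) and Dcpp2 (-4.77 ± 1.69, adjusted p = 0.0312). The Dcpp2 call was lost without sham 2, 4 or 5 (adjusted p = 0.0547, 0.0621 and 0.0550), with the replicate block (0.0507), robust moderation (0.0567), a pseudocount of 0.1 (0.0540), no filter (0.0711) or quantile normalization (0.0753), and that of Smgc with a pseudocount of 10 (-0.78). Muc19 was at 2.74, 25.6, 2.78, 0.0920 and 1.04 FPKM in ligated 1 to 5 and 123, 80.9, 40.5, 150 and 153 FPKM in sham 1 to 5, so that sham 1, high in the members, lay within the range of its group. Of the 8 convoluted tubule genes, 8 were tested and 7 were lower. That count fell to 1 with quantile normalization, to 2 with the replicate block, without a filter, or without ligated 2, ligated 3, sham 2, sham 3 or sham 5, and to 4 with the same summed FPKM or without sham 4.

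Markers of other tissues varied between the same libraries without matching the members throughout. Each of the 10 lymph node genes was above 0 in some library, and their sum was 448, 977, 835, 27.5 and 27.1 FPKM in ligated 1 to 5 and 1126, 7.01, 8.18, 17.3 and 9.47 FPKM in sham 1 to 5. Ligated 1 was thus high in lymph node genes and low in the members, and ligated 5 the reverse. The 8 skeletal muscle genes summed to 29.2 to 729 FPKM in ligated and 1.75 to 4.14 FPKM in sham glands, and the 8 adipocyte genes to 299 to 1170 FPKM in ligated and 1.24 to 23.9 FPKM in sham glands. Within the ligated group both sums were highest in ligated 4, where the members were lowest, and within the sham group both were highest in sham 1. The 8 convoluted tubule genes summed to 55855, 7310, 6574, 32647 and 26160 FPKM in ligated 1 to 5, against 41026, 73460, 84745, 70098 and 81690 FPKM in sham 1 to 5. Ligated 2, 3 and 5 lay below ligated 1 and 4, and sham 1 was the lowest of its group. In each group the libraries high in the members thus had the lowest sums of these genes. The part of these tissues in the levels of the members was not tested.

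**Figure D4:**
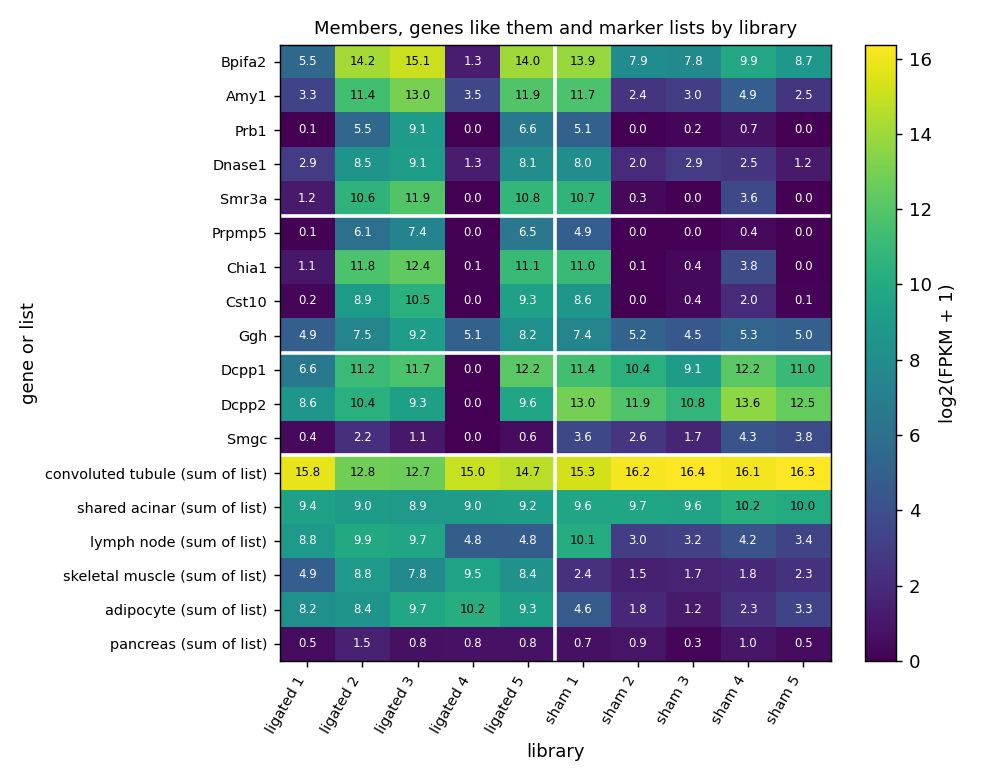
Level as log2(FPKM + 1), by colour and printed value, of the 5 members, 4 genes like them, 3 genes of demilune and mucous cells and the sums of 6 marker lists (rows) in 5 ligated and 5 sham libraries (columns). The members and Prpmp5, Chia1, Cst10 and Ggh are high in ligated 2, 3 and 5 and sham 1, while the lymph node sum is high in ligated 1, 2 and 3 and sham 1.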

How the data were processed

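RNA was sequenced from 10 submandibular glands, 5 ligated and 5 sham, grouped and numbered by the sample titles. Columns of the table were matched to samples by the description given in the labels, and 0 columns were left over. The authors deposited FPKM per gene and library, made on GRCm38 (mm10) per the submitters' processing notes, and the software that made them is not given in the sources used here. Columns sum to 337121 to 604875 FPKM, so libraries were not brought to the same sum, although FPKM are scaled to the size of each library. FPKM were multiplied by merged exon length in GENCODE M21 (96.4% of symbols found). Below 200 reads, 98.3% to 98.4% of the resulting values were whole within 0.01 of a read, which gave the assigned reads. Whether 1 unit is a read or a pair is not known. Of whole values up to 10 units 68.8% to 77.4% were even, so a number of reads may stand for fewer fragments. No pair of libraries was identical. Limits at 3 reads cover counting error only.

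Genes reaching 1 FPKM in 5 or more libraries were fitted as log2(FPKM + 1) with limma 3.58.1 in R 4.3.3 (2 groups, no covariate, mean-variance trend, two-sided p, Benjamini-Hochberg over all 11856 genes), and called where the adjusted p was below 0.05 and the log2 fold change reached 1 either way. The pseudocount understates changes of low genes. Fold changes are ligated over sham. Ratios to Bpifa2 used exact permutation tests over libraries. These tests and the other steps outside limma were run in Python 3.11.15 with numpy 2.4.6. Where the labels do not tie a number to an animal, p-values measure the spread between these samples. The fit was checked on simulated data.

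The members and gene lists were chosen with earlier results of these data known. Named genes were the members, the 10 genes most like Bpifa2 and 3 most like each other member (genes passing the filter with a mean of at least 10 FPKM, predicted gene models left out), and in each list up to 4 called genes and 2 of the highest mean. Smgc, Dcpp1 to Dcpp3, Prpmp5, Dnase1l3, Lpo, Xbp1, Xist and the neighbours were named after their values were seen, as was the sequence window. Alternatives were another pseudocount (0.1 or 10), filter (none, or 5 FPKM), scaling, robust moderation, a replicate block and leaving out each library.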

Additional observations from a re-analysis of the deposited data

Results flagged for a closer look

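Sham 1 lay far above the other 4 sham libraries in Amy1, Prb1 and Dnase1. On the log2(FPKM + 1) scale its gap to the next library was 0.738 of the range of the group for Amy1, 0.856 for Prb1 and 0.755 for Dnase1. Ligated 4 lay above the other ligated libraries in the ratio of Amy1 to Bpifa2, with a gap of 0.85 of the range. Of 18 groups of values examined in this way 4 stood out. Chance gives about 1 in 20, but the groups share libraries and the members vary together, and 3 of the 4 are the library sham 1, so the number cannot be read against that rate.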

How the results depend on the processing

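Without one library at a time, the log2 fold change was -0.89 to 2.55 for Bpifa2, 2.61 to 5.42 for Amy1, 1.82 to 4.09 for Prb1, 1.86 to 3.82 for Dnase1 and 2.73 to 5.92 for Smr3a, with limma adjusted p of 0.275 to 0.988, 0.0376 to 0.357, none for Prb1, 0.0471 to 0.369 and 0.0571 to 0.424. The sign of Bpifa2 turned without ligated 2 (-0.67), 3 (-0.89) or 5 (-0.63), without sham 2 (-0.06) or 3 (-0.09), and after median-ratio scaling (-0.25). Members called higher were 0 to 2 and called lower 0 to 0 over these fits, 2 only without sham 1. In every other setting 0 were called. Without one library the ratio differences to Bpifa2 were 2.45 to 3.996 (Amy1), 1.54 to 3.40 (Prb1), 1.27 to 2.76 (Dnase1) and 3.10 to 4.496 (Smr3a). With a pseudocount of 0.1 those of Amy1 (3.57, exact permutation, adjusted p = 0.0476) and Prb1 (3.56, adjusted p = 0.0317) passed. With a pseudocount of 10 none passed. The differences were then 2.39 for Amy1 and 2.18 for Smr3a (exact permutation, adjusted p = 0.0635 for each). For Prb1 the difference fell to 1.03 (adjusted p = 0.571) and for Dnase1 to 1.19 (adjusted p = 0.550). The cause was not tested.

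Over all genes 2031 were called higher and 138 lower, and without one library 1725 to 2732 and 102 to 202. A pseudocount of 10 gave 408 and 54, median-ratio scaling 840 and 471, quantile normalization 689 and 509, and the same summed FPKM 5464 and 65. A filter at 5 FPKM gave 1166 higher. The median log2 fold change of all genes moved to 0.01 with median-ratio scaling, -0.08 with quantile normalization and 0.97 with the same sum. With the replicate block the members' adjusted p was 0.242 to 0.911, and 2082 genes were higher and 121 lower. Same-numbered libraries did not deviate together throughout (r of -0.378 to 0.577 across genes), and 2 of 5 matched their own number best. The block changed no member's call. For the ratios an exact sign-flip test gave p of 0.125 to 0.188. With 5 pairs this test cannot give a p below 0.05, so it cannot decide whether the ratios differed. Prb1 missed the main filter and was fitted with limma only without a filter (log2 fold change 3.03, limma adjusted p = 0.258). Its values in the other settings are differences of group means without a fit. For Prb1 no value was made with the filter at 5 FPKM, quantile normalization or robust moderation. Values of Prb1 and Smr3a near 0 are limited by depth.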
